A study of Mus musculus with 32 samples.

Results

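The acute phase reactants are plasma proteins whose output changes during inflammation, and 10 of their genes were followed here in a mouse model of liver metastasis of colorectal cancer (CRC). The members were the probes, control spots left out, whose gene name in the scanner output was *Orm1*, *Orm2*, *Orm3*, *Saa1*, *Saa2*, *Saa3*, *Saa4*, *Lcn2*, *Crp* or *Apcs*. Each gene had 1 probe, so 10 of the 55681 probes on the array are described. The 32 samples came from 6- to 8-week-old male BALB/c mice and formed 8 groups of 4. Endothelial, Ito and Kupffer cells were isolated from livers 14 days after C26 colon carcinoma cells (TME groups ET, IT and KT) or PBS (control groups EC, IC and KC) had been given into the spleen. The C26 cells come from a BALB/c colon tumor, so the model is a syngeneic graft by way of the spleen, and no group carried a transgene. TM is the group labelled as tumor liver metastasis cells, and TP the group labelled as CRC primary cells. Per the methods, the liver cells were taken from density gradients, with Kupffer cells removed from the other fractions by adherence, and were used within 24 h of isolation after washing and culture. All values below are log2 of the deposited quantile-normalized intensity, 1 unit being a doubling. Intensities of different probes are not compared with each other.

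Most acute phase proteins are secreted by hepatocytes, in which interleukin 6 acts through STAT3 and interleukin 1 through NF-kB, with C/EBP proteins taking part in both. *Orm1*, *Orm2* and *Orm3* encode orosomucoids, plasma lipocalins that bind drugs and lipids. *Saa1* and *Saa2* encode serum amyloid A proteins of the liver that travel on high density lipoprotein, *Saa4* encodes a constitutive relative, and *Saa3* is the form made outside hepatocytes, among other cells by macrophages. *Lcn2* encodes lipocalin 2, which binds bacterial siderophores and is stored in neutrophil granules. *Crp* and *Apcs* encode the pentraxins C-reactive protein and serum amyloid P component, of which *Apcs* is the strongly induced form in mice.

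The orosomucoid and serum amyloid A genes are clusters of close copies, so the probe sequences are shown for the members on which the results turn. They are the strings of the array files, 5′ to 3′, with mm9 positions. The capitals mark the start codon in the *Apcs* probe and the stop codon in the *Saa1* probe, whose last bases beyond that codon are not printed.
Orm1, chr4:63006483-63007090, plus strand: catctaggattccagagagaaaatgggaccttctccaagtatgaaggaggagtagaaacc
Orm2, chr4:63024979-63025038, plus strand: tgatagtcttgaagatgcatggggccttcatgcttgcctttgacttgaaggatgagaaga
Orm3, chr4:63018910-63020393, plus strand: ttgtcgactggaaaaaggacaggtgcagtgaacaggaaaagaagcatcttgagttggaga
Saa1, chr7:53996070-53996129, minus strand: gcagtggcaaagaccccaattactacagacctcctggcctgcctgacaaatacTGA
Saa3, chr7:53970389-53970448, minus strand: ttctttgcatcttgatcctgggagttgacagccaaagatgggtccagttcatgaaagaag
Apcs, chr1:174824959-174825018, minus strand: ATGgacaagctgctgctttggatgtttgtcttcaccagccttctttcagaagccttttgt
Cross-hybridisation among the copies was not tested, so values of *Orm1* against *Orm2* and of *Saa1* against *Saa2* or *Saa3* are uncertain where these pairs move alike.

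The 250 bases before the gene start were read from RefSeq (GRCm38.p6) for 9 of the 10 members; *Orm1* had no entry. The windows are shown for the pair of liver serum amyloid A genes and for *Saa3*, whose levels followed a different order of groups. *Saa1* and *Saa2* were identical at 238 of 251 aligned columns (94.8%), whereas *Saa1* and *Saa3* shared 132 of 263 (50.2%). *Saa4*, highest in IT and then in IC like *Saa1* with all samples, shared 122 of 265 (46%) with *Saa1*. *Crp* and *Apcs* shared 123 of 266 (46.2%). Whether the windows bear on the order of groups was not tested. Capitals mark the C/EBP motif TTGCNNAA on either strand.
Saa1, chr7:46742981-46743230, minus strand: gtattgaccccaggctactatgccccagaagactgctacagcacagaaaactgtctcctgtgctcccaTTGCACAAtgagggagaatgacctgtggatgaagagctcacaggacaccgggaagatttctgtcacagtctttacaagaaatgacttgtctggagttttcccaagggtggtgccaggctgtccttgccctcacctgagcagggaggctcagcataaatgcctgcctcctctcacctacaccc
Saa2, chr7:46751583-46751832, plus strand: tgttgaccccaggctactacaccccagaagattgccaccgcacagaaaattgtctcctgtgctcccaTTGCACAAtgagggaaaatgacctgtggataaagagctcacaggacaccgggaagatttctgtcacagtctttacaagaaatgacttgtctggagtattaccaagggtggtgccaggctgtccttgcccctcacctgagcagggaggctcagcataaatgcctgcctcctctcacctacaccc
Saa3, chr7:46715677-46715926, minus strand: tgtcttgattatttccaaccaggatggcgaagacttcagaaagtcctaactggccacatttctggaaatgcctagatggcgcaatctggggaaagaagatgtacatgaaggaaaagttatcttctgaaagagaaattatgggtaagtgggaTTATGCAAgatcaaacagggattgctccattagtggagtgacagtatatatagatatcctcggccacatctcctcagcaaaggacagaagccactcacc
The C/EBP motif was found in 7 of the 9 member windows (*Orm2*, *Orm3*, *Saa1*, *Saa2*, *Saa3*, *Saa4* and *Lcn2*) and in 9.56% of all 32851 windows of this length. *Orm2* and *Orm3* were identical at 219 of 255 aligned columns (85.9%), so these 7 windows, which also hold the *Saa1* and *Saa2* pair, are not independent. The STAT motif TTCNNNGAA was found in the *Apcs* window alone among the members and in 7.02% of all windows. An NF-kB motif of 10 letters was found in none of the 9 and in 1.41% of all. Both strands were searched and the motifs do not overlap in the printed windows. A match is a run of letters and not a site of binding.

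Each array carried a Cy3 and a Cy5 sample with the same replicate number. EC, IC, KC and TM were always Cy3 and ET, IT, KT and TP always Cy5, so dye and condition cannot be told apart in any comparison of TME with control. Endothelial and Ito arrays lay on the first slide and Kupffer and tumor arrays on the second, so levels in endothelial or Ito cells cannot be set against those in Kupffer or tumor cells without the slide. Between 38.4 and 57.1% of spots per channel were well above background. In both Ito and Kupffer cells, the array with replicate 4 ran opposite to its 3 companions: over 17105 probes their TME minus control differences correlated with the mean of the other 3 arrays at r = -0.66 and r = -0.60. The libraries labelled replicate 4 of IC, IT, KC and KT were kept under their labels, and the comparisons of the members are given with and without them. IT replicate 2 and KC replicate 3 also stood apart.

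The labelled cell types were checked against marker lists. The mean level of 11 sinusoidal endothelial markers was 12.58 to 12.71 in EC and 11.56 to 11.95 in IC on the same slide, against 9.91 to 12.02 in IT. The 11 macrophage markers did not set the Kupffer groups apart from the Ito groups, with a mean level of 12.47 to 14.37 in KC and 12.27 to 13.92 in IC on different slides. The 12 stellate (Ito) cell markers did not set the Ito groups apart: their mean level was 7.84 to 8.19 in IC and 9.03 to 9.72 in EC, and 2 of 12 were called lower in IC than in EC and none higher. The fractions labelled Ito cells are therefore named by their label. The 16 hepatocyte markers had a mean level of 10.32 to 10.80 in IC, 8.09 to 8.26 in EC and 7.65 to 9.18 in KC, against 2.70 to 2.99 in TM. In such bulk samples, fewer cells of a type and less RNA per cell cannot be told apart.

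The orosomucoid genes were highest in the Ito groups and not well above background in any tumor sample. *Orm1* read 9.43, 9.51, 9.37 and 11.92 in IC replicates 1 to 4, and 11.76, 11.86, 11.52 and 9.41 in IT. IT replicates 1 to 3 were all above IC replicates 1 to 3, while both replicates 4 lay beside the other samples of the opposite group. *Orm2* read 9.73, 9.69, 9.63 and 12.75 in IC and 12.47, 13.16, 12.21 and 9.68 in IT, with the same crossing. *Orm3* was lower: 5.07, 5.08, 3.98 and 8.55 in IC and 8.23, 9.74, 7.92 and 4.97 in IT, where IC replicate 3 was not well above background.

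In Kupffer cells the same 3 genes were less bright. *Orm1* read 7.27, 7.08, 4.87 and 8.13 in KC and 7.84, 7.79, 7.91 and 7.28 in KT. *Orm2* read 7.58, 7.34, 5.44 and 8.83 in KC and 8.47, 8.48, 8.61 and 7.36 in KT. KC replicate 3 was the lowest for both and was not well above background. In endothelial cells the groups overlapped: *Orm1* ranged from 8.21 to 8.58 in EC and from 7.44 to 8.69 in ET, and *Orm2* from 8.54 to 9.04 in EC and from 8.32 to 8.87 in ET. *Orm3* was well above background in 3 of 4 EC, 2 of 4 ET, 1 of 4 KC and 2 of 4 KT samples.

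**Figure D1:**
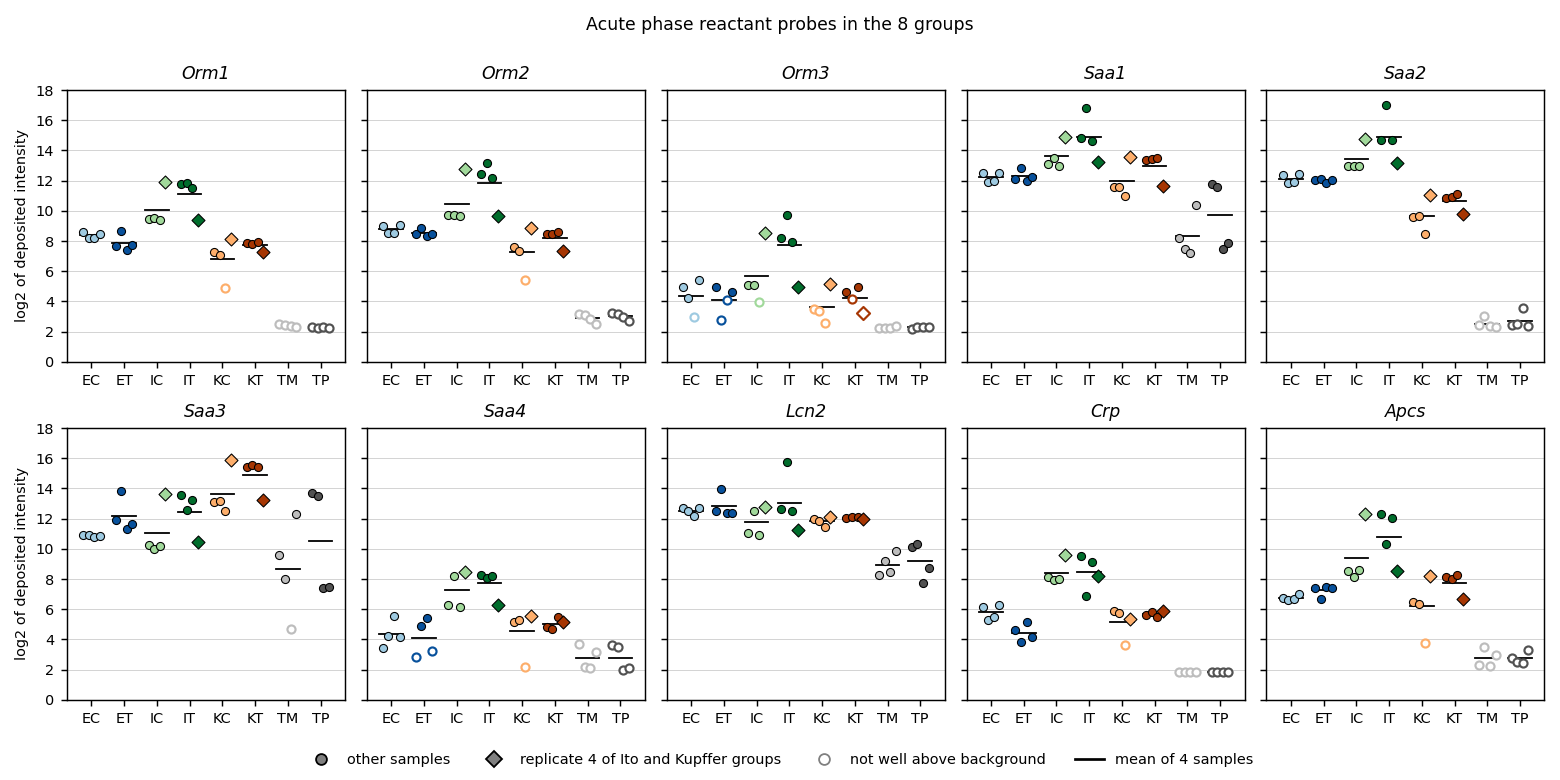
Log2 of the deposited intensity (vertical axis) of the 10 acute phase reactant probes in the 8 groups of 4 samples (horizontal axis), with a bar at each mean and open symbols for samples not well above background. Replicate 4 of the Ito and Kupffer groups, drawn as diamonds, lies with the opposite group for *Orm1*, *Orm2*, *Saa2*, *Saa3* and *Apcs* in Ito cells, and *Saa3* is the member whose highest group mean is in KT.

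Among the serum amyloid A genes, *Saa2* followed the orosomucoids. It read 13.00, 12.95, 12.94 and 14.75 in IC and 14.68, 17.03, 14.69 and 13.15 in IT. IT replicate 2 was the brightest of the 32 samples. In Kupffer cells *Saa2* read 9.59, 9.63, 8.45 and 11.05 in KC and 10.84, 10.91, 11.10 and 9.76 in KT, and in endothelial cells it stayed within 11.83 to 12.43 in EC and 11.85 to 12.08 in ET. *Saa1* read 13.13, 13.50, 13.00 and 14.91 in IC and 14.83, 16.84, 14.63 and 13.24 in IT, and 11.61, 11.61, 11.00 and 13.59 in KC against 13.39, 13.43, 13.48 and 11.66 in KT. TME and control samples of both genes did not overlap in either cell type once the replicates 4 were left out.

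*Saa3* had an order of its own. It read 13.12, 13.18, 12.48 and 15.86 in KC and 15.42, 15.53, 15.45 and 13.24 in KT. KC replicate 4 and KT replicates 1 to 3 gave the brightest readings of this probe. The other Kupffer samples lay below ET replicate 2 (13.85). In Ito cells it read 10.25, 9.98, 10.19 and 13.66 in IC and 13.60, 12.59, 13.26 and 10.44 in IT. In endothelial cells it read 10.93, 10.93, 10.79 and 10.84 in EC and 11.91, 13.85, 11.29 and 11.63 in ET, so that all 4 ET samples were above all 4 EC samples. Across the 24 liver cell channels the correlation of *Saa3* with the other 9 members lay between r = -0.23 and r = 0.25, whereas *Orm1* correlated with *Orm2* at r = 0.99 and with *Saa2* at r = 0.94. *Lcn2* was also loosely tied to the other members, from r = -0.07 with *Crp* to r = 0.56 with *Saa1*. These channels share arrays and 6 groups, the Kupffer channels lie on another slide, and the values are a description. *Saa4* was dim, with 6.29, 8.23, 6.15 and 8.45 in IC, 8.27, 8.07, 8.17 and 6.31 in IT and group means of 4.10 to 5.03 in the endothelial and Kupffer groups.

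*Lcn2* was well above background in all 32 samples. Its means in the 6 liver cell groups ranged from 11.81 ± 0.97 in IC to 13.04 ± 1.91 in IT (SD, n = 4), and the 2 brightest samples were IT replicate 2 at 15.75 and ET replicate 2 at 13.97. The Kupffer samples lay within 11.44 to 12.11 in KC and 11.96 to 12.12 in KT. The pentraxins were brightest in Ito cells. *Apcs* read 8.56, 8.15, 8.62 and 12.34 in IC and 12.30, 10.30, 12.08 and 8.54 in IT, and 6.49, 6.37, 3.75 and 8.17 in KC against 8.14, 8.0, 8.24 and 6.65 in KT, KC replicate 3 not being well above background. *Crp* read 8.14, 7.91, 8.02 and 9.60 in IC and 9.56, 6.88, 9.13 and 8.17 in IT, so its Ito groups overlapped with or without replicate 4. In endothelial cells *Crp* was lower in every ET sample (4.60, 3.83, 5.16 and 4.18) than in every EC sample (6.14, 5.30, 5.48 and 6.29).

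Of the 10 members, 9 had their highest group mean in IT and *Saa3* had it in KT. With all samples, few neighbours in these orders differed at an adjusted p under 0.05 by limma: the step from IC to the next group for *Saa4* and *Crp*, and the step to the tumor groups for *Orm1*, *Orm2*, *Saa1*, *Saa2*, *Lcn2*, *Crp* and *Apcs*. Without the replicates 4, the steps of *Saa4* from IC (adjusted p = 0.0979) and of *Saa1* to TP (adjusted p = 0.111) were no longer called by limma, IT stood above IC, its next group, for *Orm1*, *Orm2*, *Orm3*, *Saa2* and *Apcs*, and KT stood above KC for *Orm1*, *Orm2* and *Saa2*, between which no other group lay. Where neighbours lay on different slides or carried different dyes, slide or dye and group cannot be told apart.

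In Ito cells the orosomucoids, *Saa2* and *Apcs* were higher in TME than in control samples once the opposing array was left out. With all 4 arrays, limma called none of the 10 members (adjusted p 0.386 to 1.00), against 0.289% of all probes. Without the replicates 4, 5 of 10 were called, all higher in IT, against 3.69% of all probes called higher and 3.97% called lower. *Orm3* rose by 3.92 ± 0.55 (SE; 15.1-fold, limma adjusted p = 9.19e-05), from 4.71 ± 0.63 in IC to 8.63 ± 0.97 in IT (SD, n = 3 each). *Apcs* rose by 3.12 ± 0.54 (8.68-fold, adjusted p = 8.91e-04), *Orm2* by 2.93 ± 0.36 (7.60-fold, adjusted p = 1.92e-05), *Saa2* by 2.50 ± 0.44 (5.66-fold, adjusted p = 0.00103) and *Orm1* by 2.28 ± 0.38 (4.84-fold, adjusted p = 6.81e-04). These calls were made after the array that opposed the others had been left out and describe the 3 arrays that remain. Also leaving out IT replicate 2 and KC replicate 3 kept only replicates 1 and 3 of IT, and the SE then draws on a spread shared with the other groups. In that smaller fit the 5 genes were still called, but *Orm3* differed by 3.36 ± 0.56 (10.3-fold), *Saa2* by 1.72 ± 0.27 (3.29-fold) and *Apcs* by 3.75 ± 0.32 (13.4-fold). *Crp* was called as well (1.32 ± 0.29, limma adjusted p = 0.00397), while 12.3% of all probes were called.

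The other members in Ito cells did not pass in the fit without the replicates 4 alone. *Saa3* differed by 3.01 ± 1.50 (limma adjusted p = 0.263), *Saa1* by 2.23 ± 0.90 (adjusted p = 0.149), *Lcn2* by 2.14 ± 0.71 (adjusted p = 0.0714), *Saa4* by 1.28 ± 0.80 (adjusted p = 0.41) and *Crp* by 0.50 ± 0.53 (adjusted p = 0.726). The fit shares a single estimate of spread over the 8 groups, and *Saa3* had an SD of 3.20 in TM and 3.56 in TP (n = 4 each) against 0.14 in IC and 0.51 in IT without the replicates 4. A fit of the liver cells alone without the replicates 4, chosen after the data were seen, called 8 of 10 members in Ito cells, against 11.8% of all probes. Added to the former 5 were *Saa3* (3.01 ± 0.46, adjusted p = 5.16e-04), *Saa1* (2.23 ± 0.42, adjusted p = 0.0028) and *Lcn2* (2.14 ± 0.67, adjusted p = 0.0496). The *Lcn2* value rested on IT replicate 2: in the fit of all groups without it, KC replicate 3 and the replicates 4, *Lcn2* differed by 1.08 ± 0.64 (limma adjusted p = 0.352). That last fit kept only replicates 1 and 3 of IT.

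**Figure D2:**
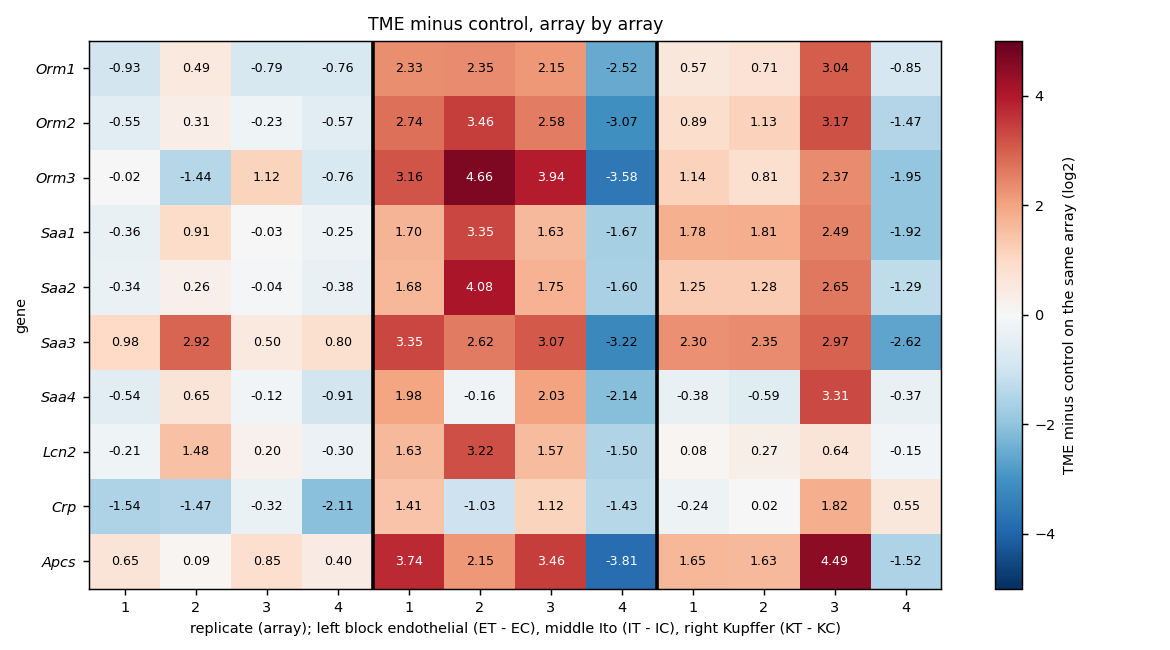
TME minus control on the same array (log2, colour and printed value) for the 10 genes (rows) on the 4 arrays of each cell type (columns). On Ito arrays 1 to 4 the difference was above 0 for 10, 8, 10 and 0 of the 10 genes, on Kupffer arrays for 8, 9, 10 and 1, and on endothelial arrays for 2, 8, 4 and 2.

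In Kupffer cells *Apcs*, *Orm1*, *Orm2* and *Saa2* were higher in TME than in control samples, again once the opposing array was left out. With all 4 arrays none of the 10 members was called (adjusted p 0.717 to 1.00), against 0.436% of all probes. Without the replicates 4, 4 of 10 were called higher in KT, against 1.75% of all probes called higher. *Apcs* rose by 2.59 ± 0.54 (SE; 6.02-fold, limma adjusted p = 0.00825), *Orm2* by 1.73 ± 0.36 (3.32-fold, adjusted p = 0.00781), *Saa2* by 1.73 ± 0.44 (3.31-fold, adjusted p = 0.0299) and *Orm1* by 1.44 ± 0.38 (2.71-fold, adjusted p = 0.0371). KC replicate 3 enlarged these values: also without it and without IT replicate 2, *Orm2* differed by 1.06 ± 0.20 (adjusted p = 0.00375), *Saa2* by 1.34 ± 0.27 (adjusted p = 0.00599) and *Apcs* by 1.70 ± 0.32 (adjusted p = 0.00294) by limma, and *Orm1* was no longer called. Only replicates 1 and 2 of KC were left there, and 4.86% of all probes were called. With the shared array as a block, *Orm2* (adjusted p = 0.0233) and *Apcs* (adjusted p = 0.019) remained of the 4 by limma, while *Saa2* (adjusted p = 0.0564) and *Orm1* (adjusted p = 0.0665) did not pass. *Saa3* differed by 2.54 ± 1.50 (adjusted p = 0.464) in the fit of all groups and by 2.54 ± 0.46 (adjusted p = 0.00404) in the fit of the liver cells alone. That fit called 5 of 10 members (*Orm2*, *Saa1*, *Saa2*, *Saa3* and *Apcs*), against 6.31% of all probes. *Lcn2* differed by 0.33 ± 0.71 (limma adjusted p = 0.967) and was not called in Kupffer cells in any fit.

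In endothelial cells none of the 10 members was called, with or without the replicates 4, against 1.14% and 1.64% of all probes. The largest differences were those of *Crp*, -1.36 ± 0.47 (SE; limma adjusted p = 0.252), and *Saa3*, 1.30 ± 1.38 (limma adjusted p = 1.00). Both genes had groups that did not overlap, and each reached the smallest p that 4 samples against 4 allow in a two-sided exact permutation test, 0.0286, or 0.381 after Benjamini-Hochberg adjustment over the 40 tests of 10 genes in 4 comparisons. The orosomucoids differed by -0.50 ± 0.56, -0.26 ± 0.65 and -0.28 ± 0.83 for *Orm1*, *Orm2* and *Orm3*. *Crp* was called lower (adjusted p = 0.022) once IT replicate 2 and KC replicate 3 were left out, a pair of samples that enter this comparison through the shared spread alone.

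**Figure D3:**
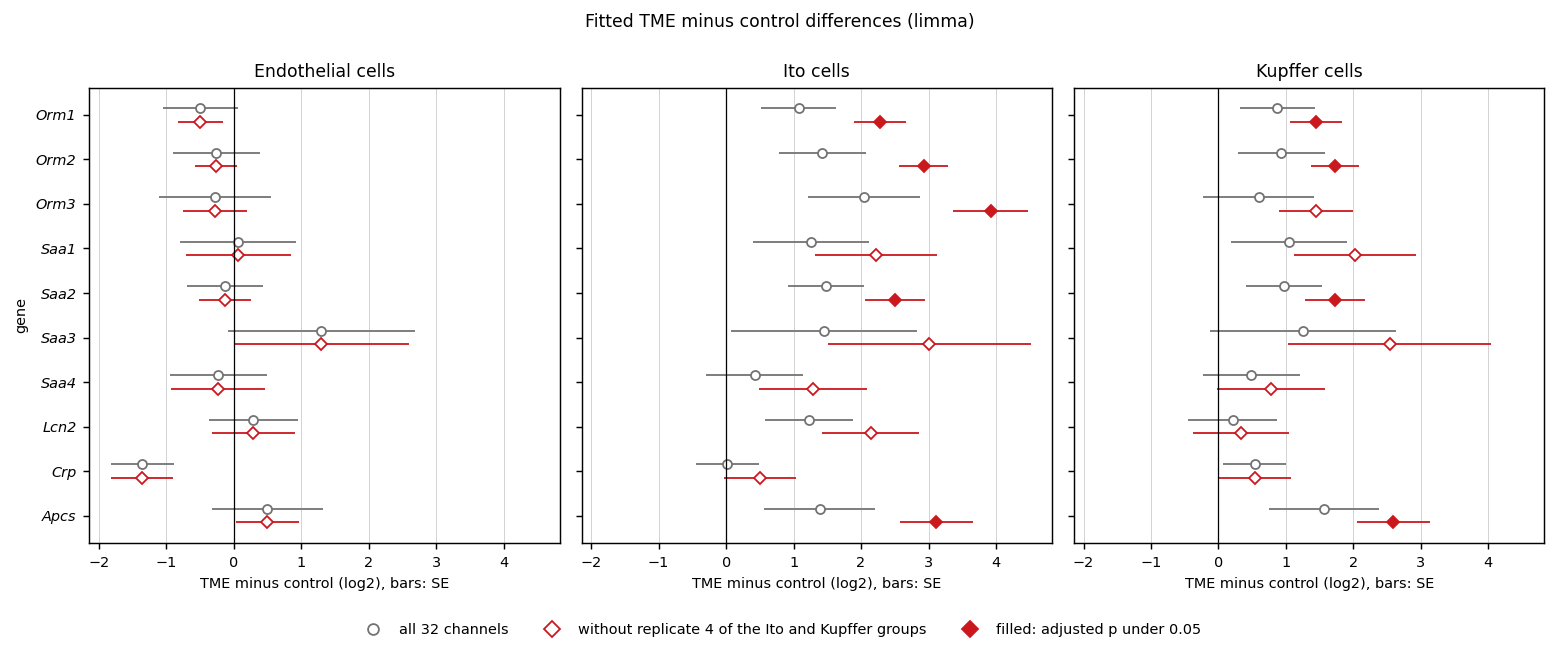
Fitted TME minus control difference (log2, horizontal axis) with its SE for each gene (vertical axis) in the 3 cell types, from limma with all 32 channels (grey circles) and without replicate 4 of the Ito and Kupffer groups (red diamonds, filled where the adjusted p is under 0.05). Filled symbols appear for 5 genes in Ito cells and 4 in Kupffer cells and for none in endothelial cells.

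Whether the change differed between cell types was tested as a contrast of changes. With all samples none of the 30 contrasts of the 10 members was called by limma (the lowest adjusted p was 0.841; for the Ito against the endothelial change 0.111% of all probes were called). Without the replicates 4, the Ito change exceeded the endothelial change for *Orm3* by 4.19 ± 0.73 (SE; limma adjusted p = 0.00271), for *Orm2* by 3.18 ± 0.47 (adjusted p = 6.13e-04), for *Orm1* by 2.77 ± 0.51 (adjusted p = 0.00428) and for *Saa2* by 2.63 ± 0.58 (adjusted p = 0.0201), 4 of 10 members against 0.893% of all probes called higher. With the shared array as a block, *Saa2* lost its call (limma adjusted p = 0.0553) and the 3 orosomucoids kept theirs. *Saa3* differed by 1.71 ± 1.99 in this contrast (adjusted p = 0.919). No member was called for the Kupffer against the endothelial change, where *Orm2* came closest (1.99 ± 0.47, limma adjusted p = 0.0712; 0.395% of all probes), or for the Kupffer against the Ito change, where *Orm3* came closest (-2.48 ± 0.78, adjusted p = 0.299; 0.183% of all probes).

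Control Ito and control endothelial cells shared a slide and a dye. *Crp* was higher in IC by 2.62 ± 0.47 (SE; 6.14-fold, limma adjusted p = 3.98e-04), *Saa4* by 2.95 ± 0.72 (7.72-fold, adjusted p = 0.00766) and *Apcs* by 2.66 ± 0.82 (6.30-fold, adjusted p = 0.037), 3 of 10 members against 4.17% of all probes called higher and 9.89% in either direction, and the same 3 were called without the replicates 4, at 2.22 ± 0.50 for *Crp*, 2.56 ± 0.75 for *Saa4* and 1.68 ± 0.51 for *Apcs*, the last falling to 3.21-fold. *Lcn2* differed by -0.71 ± 0.66 and *Saa3* by 0.15 ± 1.38. Between IT and ET, 7 of 10 members were called higher in IT, against 3.48% of all probes called higher and 8.26% in either direction. *Crp* was higher by 3.99 ± 0.47 (15.9-fold, limma adjusted p = 2.1e-06), *Saa4* by 3.61 ± 0.72, *Orm3* by 3.60 ± 0.83, *Apcs* by 3.55 ± 0.82, *Orm2* by 3.36 ± 0.65, *Orm1* by 3.26 ± 0.56 and *Saa2* by 2.88 ± 0.56. The same 7 were called without the replicates 4, and *Saa1* as well (3.15 ± 0.84, limma adjusted p = 0.0203). There *Orm3* was higher by 4.52 ± 0.51, *Apcs* by 4.30 ± 0.51, *Orm2* by 4.09 ± 0.34, *Crp* by 4.08 ± 0.50, *Saa4* by 4.07 ± 0.75, *Orm1* by 3.84 ± 0.36 and *Saa2* by 3.46 ± 0.41. *Saa3* (0.30 ± 1.38) and *Lcn2* (0.23 ± 0.66) were the members not called between IT and ET in either fit.

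These differences between Ito and endothelial cells ran beside the hepatocyte markers, of which 12 of 16 were called higher in IC than in EC and 16 of 16 higher in IT than in ET (13 and 16 without the replicates 4). The share of the members' levels that hepatocyte RNA gives was not tested. From control to TME, no hepatocyte marker was called in Ito or Kupffer cells with all samples. In Ito cells without the replicates 4 their median difference was -0.11, with *Hnf4a*, a hepatocyte transcription factor, called higher (1.11) and *Fabp1*, a fatty acid binding protein, called lower (-1.24). In Kupffer cells, likewise without them, the median was -0.80 and *Fabp1* was lower (-1.57). In endothelial cells 5 of 16 were called lower with all samples, the largest fall being that of *Cyp3a11*, a drug-metabolizing enzyme (-3.63).

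Of 12 neutrophil markers, some were called higher in TME than in control samples of each of the 3 cell types without the replicates 4. Their mean level over 12 genes was 5.68, 5.91, 5.62 and 8.29 in IC and 8.13, 9.20, 7.61 and 5.97 in IT, so replicate 4 crossed over here too. No neutrophil marker was called in the 3 cell types with all samples. With the replicates 4 left out, 7 of 12 were called higher in IT (median difference 3.11), among them *Ltf*, *Ngp*, *S100a9* and *S100a8*, which encode granule and cytosolic proteins of neutrophils, by 5.32, 4.38, 4.36 and 3.31. In KT 2 of 12 were called higher (median 1.71) and in ET 3 of 12 (median 2.13). Over all probes in that fit, 3.69% were called higher in IT, 1.75% in KT and 0.835% in ET. The samples left out enter the endothelial comparison through the shared spread alone. *Lcn2* and *Saa3* are also made by myeloid cells, and the part of neutrophil RNA in their levels was not tested. ET replicate 2, the highest of its group for *Lcn2* and *Saa3*, was also the highest for these markers, at 8.47 against 7.09 to 7.67 in the other ET samples. IT replicate 2, the brightest sample for *Saa1*, *Saa2* and *Lcn2*, had the highest neutrophil level (9.20), the lowest macrophage level of the Ito samples (10.75 against 12.27 to 13.92) and the highest epithelial level (7.59 against 4.84 to 5.65). This sample also had the highest stellate level (9.79) and the lowest endothelial level (9.91) of the Ito samples. The same 9 epithelial markers had a mean level of 3.76 to 4.39 in TM and 4.06 to 4.53 in TP, on the other slide, so this list did not mark the tumor groups.

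**Figure D4:**
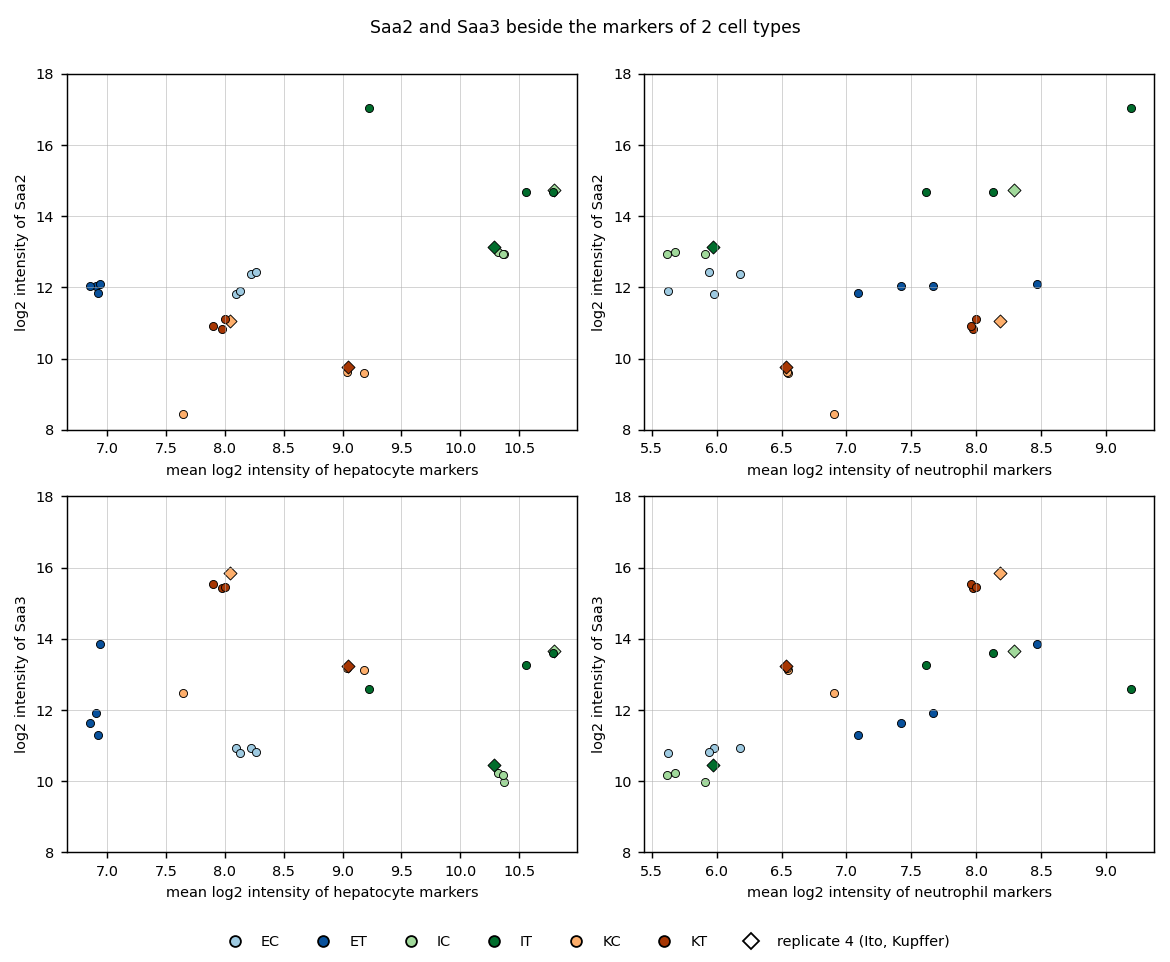
Log2 intensity of *Saa2* (top) and *Saa3* (bottom) against the mean log2 intensity of 16 hepatocyte markers (left) and 12 neutrophil markers (right) in the 24 liver cell samples, coloured by group. Among Ito cells, IT replicates 1 and 3 lie above IC replicates 1 to 3 for *Saa2*, IT replicate 2 is the highest at a lower hepatocyte level (9.23), and the replicates 4 are crossed, while ET samples have lower hepatocyte levels than EC samples at similar *Saa2*.

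The tumor groups had the lowest mean level of every member with all samples, and of 9 without the replicates 4, where *Saa3* was lower in IC (10.14) than in TP (10.52). *Orm1*, *Orm2*, *Orm3*, *Saa2*, *Saa4*, *Crp* and *Apcs* were not well above background in any of the 8 tumor samples. Set against the Kupffer cells of the same slide and dye, 8 of 10 members were called lower in TM than in KC, against 16.2% of all probes called lower and 39.4% in either direction, and 9 of 10 lower in TP than in KT, against 17.8% called lower and 43.6% in either direction. From the arrays normalized within and between themselves, a scale open to dye bias since no dye was swapped, *Saa2* was at least 10.7-fold lower in TM and at least 17.2-fold lower in TP (limma adjusted p = 3.2e-11 and 3.61e-12 on the deposited values). Further bounds were at least 2.33-fold in TM and 2.82-fold in TP for *Orm1*, 2.91-fold and 3.62-fold for *Orm2*, 2.17-fold and 2.91-fold for *Apcs*, and 1.50-fold and 1.51-fold for *Crp*, with KC measured on 3 of 4 arrays for these 4 genes. *Saa4*, called lower in TP and not in TM, had bounds of only 1.31-fold in TM and 1.15-fold in TP. *Orm3* was not called in either comparison with all samples, with a bound of 1.00-fold in TM and none in TP. Without the replicates 4, 8 of 10 members were called lower in TM and 10 of 10 in TP, against 16.1% and 17.5% of all probes called lower, with *Orm3* among the latter (limma adjusted p = 6.87e-04).

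*Saa1*, *Saa3* and *Lcn2* were measured in the tumors and varied widely among them. *Saa3* read 9.57, 8.01, 4.66 and 12.32 in TM, where replicate 3 was not well above background, and 13.68, 13.53, 7.43 and 7.45 in TP. *Saa1* read 8.19, 7.48, 7.21 and 10.37 in TM and 11.81, 11.58, 7.49 and 7.90 in TP. TM replicate 4 and TP replicates 1 and 2 were the high samples for both genes, and the groups overlapped. *Saa2*, the close copy of *Saa1*, lay at 2.27 to 3.04 in TM and 2.40 to 3.55 in TP. Whether the *Saa1* probe reads *Saa3* transcripts in the tumors was not tested. TP exceeded TM by 1.88 ± 1.38 for *Saa3* (SE; limma adjusted p = 0.555), by 1.38 ± 0.86 for *Saa1* (adjusted p = 0.458) and by 0.27 ± 0.66 for *Lcn2* (adjusted p = 0.948), and 0 of 10 members were called, against 3.01% of all probes. The mean level of 11 macrophage markers in the same samples was 5.76, 3.95, 3.44 and 5.93 in TM and 5.80, 5.22, 4.68 and 3.90 in TP, so the highest *Saa3* samples, TM replicate 4 and TP replicates 1 and 2, also had the highest macrophage levels of their groups. TM replicate 1 had a macrophage level close to that of TM replicate 4 (5.76 and 5.93) at a lower *Saa3* (9.57 and 12.32). The mean level of 12 neutrophil markers was 5.21, 5.08, 4.74 and 6.81 in TM and 5.50, 5.45, 5.37 and 5.70 in TP. It was thus highest in TM replicate 4 and in TP replicate 4, a sample low in *Saa3*. The part of macrophage or neutrophil RNA in *Saa3* was not tested.

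Other genes of the acute phase response were counted from lists. Of 24 other positive acute phase genes, none was called in Ito cells with all arrays, and without the replicates 4, 3 were higher and 2 lower (median 0.46, against 0.00 over all probes). The higher ones were *Itih3* (3.01), *Hpx* (2.73) and *Itih4* (2.65), which encode plasma proteins of the inter-alpha-inhibitor family and hemopexin, the heme carrier. The lower ones included *Mt1*, a metallothionein (-1.56). In Kupffer cells none was called with all arrays and *Itih3* alone without the replicates 4 (1.81), and in endothelial cells with all samples *Itih4* (2.95) and *Vwf* (1.80), the von Willebrand factor, were higher and *Steap4*, a metalloreductase, lower (-1.11). Of 11 negative acute phase genes, which fall in an acute phase response, none was called in Ito or Kupffer cells without the replicates 4, while 5 were lower in ET, among them *Serpina6*, the corticosteroid carrier (-2.35), and *Ttr*, transthyretin (-1.88). The hepatocyte list also holds *Ttr* and *Apoa2*, which were among these 5, and *Alb*, *Apoa1* and *Ahsg* of the same 11, which were not called in ET with all samples.

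Of 12 cytokines that induce acute phase genes, *Ifng* alone was called, higher by 5.84 in IT and by 3.08 in KT without the replicates 4 and not called with all arrays; its probe was well above background in 17 of 32 samples. *Il6*, *Il1b* and *Tnf* were not called in any of the 3 cell types. Among receptors and signal transducers, none was called in Ito cells with all arrays, and those called in Ito cells without the replicates 4 included *Cebpe* (2.16) and *Hnf4a* (1.11), both transcription factors, which were higher, and *Nfkbiz* (-1.75), *Nfkb1* (-1.07) and *Nfkbia* (-0.99) of the NF-kB pathway, which were lower. No gene of that list was called in Kupffer cells, and in endothelial cells *Jak1*, a kinase of cytokine receptors, was lower (-0.95). Of 20 receptors and binding partners of the acute phase proteins, *Mmp9*, the gelatinase bound by lipocalin 2, was higher in IT (2.63) and KT (3.28) without the replicates 4. The *Mmp9* probe was well above background in 10 of 32 samples. In the same fit, *Fcgr4*, an Fc receptor (2.43), and *C4bp*, the C4b-binding protein (1.55), were higher in IT, and *Scarb1* was higher in KT (0.94). With all arrays none of the 20 was called in either cell type.

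The genes most like each member were found by Pearson correlation over the 32 channels, a measure that the tumor groups and the shared arrays shape. *Hpx* came first for *Orm1* (r = 0.99), *Orm2* (r = 0.98) and *Saa2* (r = 0.98). *Cyp2c39*, a cytochrome P450, came first for *Crp* (r = 0.98), *Igfbp1* for *Apcs* (r = 0.97), *Kng2*, a kininogen, for *Saa1* (r = 0.93), *Itih2* for *Saa4* (r = 0.90) and *Prg4* for *Orm3* (r = 0.89). *Saa3* was most like *Slpi*, a secreted protease inhibitor (r = 0.94), and *Ccl6*, a myeloid chemokine (r = 0.93), and *Lcn2* was most like *Chchd10* (r = 0.93).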

How the data were processed

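Two-colour Agilent mouse expression arrays (16 arrays, 8 per slide) held 32 samples, each read as a single channel. Per the methods, the 4 samples of a group were biological replicates. The authors scanned the arrays with Agilent Feature Extraction, which gave spot intensity per channel, and deposited a table of quantile-normalized intensity per probe on a linear scale, with no log taken. The log2 of the deposited intensity was computed here and tested. Each of the 32 table columns was best matched by its own scanner channel (Spearman correlation at least 0.9996). No spot was saturated. Numbers of arrays, not read depth, limit the precision, and depth of sequencing does not apply.

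The scanner files gave the gene name of each of 55681 probes, the flag for signal well above background, and the mm9 positions of the probes. All 10 member probes were well above background on the 4 arrays of at least 1 group. One linear model over the 8 groups was fitted to all probes with limma 3.58.1 in R 4.3.3 (lmFit and eBayes), p-values were adjusted by the Benjamini-Hochberg method over 55681 probes, and a probe was called at an adjusted p under 0.05. Groups came from the sample labels. Single genes were also compared by exact permutation tests. The genes most like a member were the 5 of highest Pearson correlation among other genes. On simulated data of the same size the fit was checked for recovery of known changes. The array shared by a pair of samples was tried as a block. Deviations from the group means on a shared array correlated at 0.05 to 0.40 in endothelial, -0.64 to 0.23 in Ito, -0.57 to 0.13 in Kupffer and -0.17 to 0.18 in tumor arrays.

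Alternatives were the scanner's processed signal, normexp background correction (offset 50) with quantile or loess and Aquantile normalization, 75th percentile scaling, log2(value + 10), a filter on dim probes (29017 kept), a fit of the compared groups alone, the methods' t-test, calls at an adjusted p under 0.001 with at least 4-fold, and leaving out replicates. Leaving out IT replicate 2 and KC replicate 3, fitting the liver cells alone, and the block without the replicates 4 were chosen after seeing the data. The members, the lists of genes and the choice to leave out the replicates 4 were made with earlier results of these data known. Promoter windows came from RefSeq tables of GRCm38.p6, a different build from that of the probes, and no coordinates were converted. A gene of the list of receptors and signal transducers is not reported here.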

Additional observations from a re-analysis of the deposited data

Results flagged for a closer look

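Within groups of 4 samples, the highest or lowest sample was set apart when its gap to the nearest other sample, divided by the range of the group, passed the 95% critical value of Dixon's test for groups of this size. Chance sets apart about 1 in 20 groups, and 17 of the 80 sets of 10 genes in 8 groups passed. Of these, 13 were in the Ito and Kupffer groups.

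In IC the sample apart was replicate 4, with ratios of 0.948 for *Orm1*, 0.968 for *Orm2*, 0.969 for *Saa2*, 0.927 for *Saa3*, 0.862 for *Crp* and 0.889 for *Apcs*. In IT it was replicate 4 for *Orm1* (0.864) and *Saa4* (0.898). In KT it was replicate 4 for *Orm2* (0.892), *Saa1* (0.950), *Saa3* (0.950) and *Apcs* (0.854). In KC it was replicate 3 for *Saa4* (0.897), which was not well above background. In ET it was replicate 2, high for *Lcn2* (0.911) and low for *Apcs* (0.889). The ratios of 0.864 for *Orm3* in TM and 0.898 for *Saa2* in TP came from samples not well above background.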

How the results depend on the processing

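Over the single genes and comparisons, 1414 values under an alternative kept their side of the threshold, 77 came to pass it and 39 no longer passed it. No call changed direction. Differences that were not called could change sign, as did that of *Crp* in Kupffer cells without the replicates 4, IT replicate 2 and KC replicate 3. From 0 members called in Ito cells, leaving out replicate 4 of the Ito and Kupffer groups gave 5, the liver cells alone without them 8, and leaving out IT replicate 2 and KC replicate 3 as well 6. The same 3 settings gave 4, 5 and 3 in Kupffer cells from 0, and 4, 5 and 11 of 30 contrasts between cell types from 0. Over all probes, these settings called 7.66%, 11.8% and 12.3% in Ito cells, from 0.289%. In Kupffer cells they called 3.85%, 6.31% and 4.86%, from 0.436%. For the Ito against the endothelial change the shares were 1.67%, 3.44% and 5.08%, from 0.111%. In endothelial cells, leaving out IT replicate 2 and KC replicate 3 gave 1 in place of 0, with or without the replicates 4. With the replicates 4 also left out, 3.62% of all probes were called there, against 1.64% with only the replicates 4 left out.

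With the shared array as a replicate block, no count changed with all samples (0 in each TME comparison, 3 for IC against EC and 7 for IT against ET). Without the replicates 4 the block gave 6 in Ito cells, 2 in Kupffer cells and 3 contrasts, against 8.03% of all probes in Ito and 3.64% in Kupffer cells.

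For IC against EC, the count of 3 became 1 by the methods' t-test and 1 at the stricter threshold, and 6 without IT replicate 2 and KC replicate 3, with or without the replicates 4. Leaving out these samples and the replicates 4 called 17.5% of all probes, against 9.89% with all samples. For IT against ET, 7 became 4 with these 2 groups alone, 1 by the methods' t-test and 2 at the stricter threshold. For TM against KC, 8 became 5 at the stricter threshold. That threshold called 1.24% of all probes for IC against EC, 0.871% for IT against ET and 14.3% for TM against KC. Leaving out each replicate number in turn gave 0 to 5 in Ito cells, 0 to 2 in Kupffer cells, 1 to 2 for IC against EC, 3 to 8 for IT against ET, 8 to 9 for TM against KC, 7 to 9 for TP against KT and 0 to 3 contrasts, and 7 to 9 members were highest in IT. The cause of these shifts was not tested. Signal over background limits *Orm3*, *Saa4* and the tumor values.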
